A study of Mus musculus with 15 samples.

Results

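The 7 genes examined here make and control MHC class II molecules: Cd74, the chain genes H2-Aa, H2-Ab1 and H2-Eb1, the peptide exchange genes H2-DMa and H2-DMb1, and Ciita. They were taken by name from the 32372 genes of the count matrix. They were measured in 102043 brain cells enriched with CD45 beads from the cortex and hippocampus of 15 male mice, labelled as microglia. All mice were C57BL/6J of 3.5 months with the genotype hTfR KI, in which part of the human transferrin receptor was knocked into the mouse gene, and each received 1 dose of 10 mg/kg. The treated mice received ATV:4D9, an antibody to mouse TREM2 whose Fc binds the transferrin receptor, and were sampled at day 1, 7, 14 or 28. The control mice received ATV:RSV, a control antibody on the same transport vehicle, and were sampled at day 1 only. Each of the 5 groups held 3 mice, with 1 mouse of each group in each of 3 processing batches. The later days lacked their own controls, so each contrast with ATV:RSV rests on one shared set of 3 control mice.

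MHC class II molecules present peptides from endocytosed protein to CD4 T cells. The alpha and beta chains (H2-Aa with H2-Ab1 in I-A) assemble in the endoplasmic reticulum with the invariant chain, Cd74, which blocks the groove and sends the complex to endosomes. Cathepsins trim Cd74 to a short fragment called CLIP, H2-DM exchanges CLIP for peptide, and H2-O restrains H2-DM. Ciita is the coactivator that drives these genes, through RFX, CREB and NF-Y factors bound at the X and Y boxes of their promoters. Resting microglia carry little class II, and its rise is a common readout of microglial activation. C57BL/6 mice lack a working alpha chain for I-E, so H2-Eb1 is transcribed in them without its partner on the cell surface.

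Depth differed between the groups. The matrix held 707518630 unique molecular identifiers (UMIs), with 32341960 to 70307384 per mouse from 5667 to 7596 cells. The median cell had 8202 to 8996 UMIs in the ATV:4D9 day 1 mice and 4694 to 6117 in the other mice, so shares of cells are given after thinning every cell at random to 3385 UMIs, which left 91839 cells. Microglial identity was carried by all 7 marker genes in every mouse, among them P2ry12 and Tmem119, and the 7 together summed to 18482 to 19869 counts scaled to a fixed library total (CPM) under ATV:RSV and 12606 to 14085 at ATV:4D9 day 1. Of the 100747 barcode sequences, 1283 occurred in more than 1 library.

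Marker genes of other cell types were measured in the same libraries. Border-associated macrophage genes (7 genes, among them Mrc1 and Pf4) summed to 17.2 to 20.6 CPM under ATV:RSV and 17.96 to 26.05 CPM at day 1, with all 7 detected in each of these mice. Dendritic cell genes (7, among them Flt3 and Zbtb46) summed to 2.15 to 2.67 CPM and 2.18 to 3.16 CPM, and 1 cell of the whole data set carried 3 of them. B cell genes (7) summed to 237 to 287 CPM and 210 to 229 CPM, of which Ighm was the largest part, while the defining gene Ms4a1 stayed at or near 0. Monocyte genes (7) summed to 7.22 to 15.9 CPM under ATV:RSV and 15.8 to 20.99 CPM at day 1. Their part in the results was not tested beyond removing 1370 cells that carried 3 or more markers of some other type, and the effect of that removal is given with each result it changed.

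Cd74 encodes the invariant chain, the chaperone that each class II dimer needs. It stood at 40.2, 28.997 and 38.4 CPM in the 3 ATV:RSV mice, computed from the UMIs summed over all cells of a mouse on the scaled library size. At ATV:4D9 day 1 it was 254.6, 201.3 and 236.6 CPM. Every day 1 mouse was far above every control, with no overlap. The log2 fold change was 2.69 (SE 0.135, 6.45-fold), with a Benjamini-Hochberg adjusted p of 7.01e-11 in limma-voom over 14260 genes. In such sums more positive cells and more RNA per cell cannot be told apart.

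At the later days Cd74 was not called against ATV:RSV. It was 40.2, 48.6 and 39.1 CPM at day 7, 32.7, 39.7 and 48.2 CPM at day 14, and 37.1, 34.9 and 34.3 CPM at day 28. All 3 groups overlapped the controls, although 2 of the 3 day 7 mice lay above every control, 1 of them only just. The log2 differences from ATV:RSV were 0.25 (95% interval -0.062 to 0.55), 0.15 (-0.15 to 0.46) and -0.0077 (-0.31 to 0.30), none called by limma-voom. Between day 1 and day 7 the log2 level of Cd74 fell by 2.44 (SE 0.134, adjusted p 2.35e-10 in limma-voom).

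The 3 chain genes were sparse and moved in the same direction at day 1, by less than Cd74. H2-Ab1, the beta chain of I-A, was 10.8, 8.35 and 11.3 CPM under ATV:RSV and 26.1, 21.2 and 21.2 CPM at day 1. H2-Aa, its alpha chain, was 4.50, 1.98 and 3.82 CPM against 8.04, 6.29 and 6.40 CPM. H2-Eb1, the I-E beta chain, was 4.66, 2.00 and 4.99 CPM against 8.45, 5.85 and 5.71 CPM. On the scaled library size all 3 day 1 mice lay above all 3 controls for each gene. For H2-Aa and H2-Eb1 control replicate 2 was well below the other controls. Without that scaling H2-Eb1 overlapped, at 2.02 to 5.09 CPM under ATV:RSV and 4.76 to 6.58 CPM at day 1. These unscaled values leave out the few cells set apart by border-associated macrophage markers.

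All 3 chain genes rose in limma-voom, with log2 fold changes of 1.17 for H2-Ab1 (SE 0.146, adjusted p 2.87e-06), 1.07 for H2-Aa (SE 0.310, adjusted p 0.00627) and 0.86 for H2-Eb1 (SE 0.339, adjusted p 0.0337). The H2-Eb1 call did not hold in other settings. Its adjusted p was 0.0668 in edgeR, 0.0935 in DESeq2, 0.116 with library size in place of TMM scaling, 0.205 without ATV:RSV replicate 2 (log2 0.46), 0.122 without ATV:4D9 day 1 replicate 1 and 0.109 without the cells carrying markers of another type.

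At the later days no chain gene was called. H2-Ab1 was 11.5, 13.2 and 12.7 CPM at day 7, 9.77, 10.6 and 13.9 CPM at day 14 and 9.33, 11.6 and 7.77 CPM at day 28. At day 7 its lowest mouse was just above the highest control, and the log2 difference was 0.31 (95% interval -0.043 to 0.66, limma-voom adjusted p 0.381). H2-Aa ranged from 2.12 to 7.07 CPM and H2-Eb1 from 2.81 to 8.35 CPM over these 9 mice, in each group overlapping the controls. The 2 highest values belonged to ATV:4D9 day 14 replicate 3, where a single cell had 43 UMIs of H2-Aa and 121 of Cd74 after thinning.

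H2-Aa, H2-Eb1 and H2-DMb1 start close together in the class II region of chromosome 17, and their promoters carry the letters that the class II factors read. The windows below come from RefSeq promoters of GRCm38.p6 (250 bases before to 50 after the start) and are shown because all 3 genes were called higher at day 1. They are written 5′ to 3′ on the strand of the gene, with the X box core and the Y box (ATTGG) in capitals.
H2-Aa, chr17:34287857-34287914, minus strand: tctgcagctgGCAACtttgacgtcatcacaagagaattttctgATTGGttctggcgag
H2-Eb1, chr17:34305766-34305822, plus strand: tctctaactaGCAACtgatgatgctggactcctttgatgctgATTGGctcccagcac
H2-DMb1, chr17:34153087-34153144, plus strand: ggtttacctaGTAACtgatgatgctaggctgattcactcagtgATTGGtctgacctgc

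The core GCAAC followed, after 15 to 35 bases, by ATTGG was searched on both strands of 32851 start sites. It occurred in 336 (1.02%), among them H2-Aa and H2-Eb1. The core begins 81 bases before the start of H2-Aa and 91 before that of H2-Eb1, with 33 and 32 bases from the first base of the core to the first base of the Y box. With the looser core GNAAC, which was chosen after the promoters were seen, the pair occurred in 1153 (3.51%), among them H2-DMb1, whose core begins 94 bases before the start used for its promoter entry. The annotated gene begins further upstream, at position 34153072 of chromosome 17, so this window lies inside the annotated gene. The 2 listed starts of H2-DMa held neither form. The interferon element GAAANNGAA and the STAT element TTCNNNGAA stood in 8.56% and 8.30% of the start sites and in none of these 5 member starts, which says only that these letters are not in these windows. H2-Ab1 and Ciita are named here without a promoter, and the promoter of Cd74 is not reported here. The 5 member starts include none of these genes.

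The H2-DM genes, whose products load peptide in the endosome, behaved differently from each other. H2-DMb1 was 115, 117 and 121 CPM under ATV:RSV and 169.1, 153.1 and 182.2 CPM at day 1, with no overlap. Its log2 level rose by 0.51 (SE 0.0542, adjusted p 4.30e-07 in limma-voom). Its reads cannot be told apart with certainty from those of the near-identical H2-DMb2. H2-DMa was 175, 197 and 224 CPM under ATV:RSV and 175.1, 162.1 and 202.1 CPM at day 1. The groups overlapped, and the log2 difference was -0.14 (95% interval -0.32 to 0.033, limma-voom adjusted p 0.134).

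At day 7, 14 and 28 H2-DMb1 ranged from 110.6 to 119.2 CPM and H2-DMa from 190.4 to 223.0 CPM, within or next to the control range. H2-DMa rose by 0.26 from day 1 to day 7 (SE 0.0828, limma-voom adjusted p 0.0103), the reverse of the direction of the other members, and lost that call without ATV:4D9 day 1 replicate 2 (0.19, adjusted p 0.0766). The call at day 1 depended on scaling and on single mice. H2-DMa was lower than under ATV:RSV with library size alone (-0.38, adjusted p 0.000586), without ATV:RSV replicate 1 (-0.23, adjusted p 0.0199) and without ATV:4D9 day 1 replicate 3 (-0.23, adjusted p 0.0222), all in limma-voom.

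Ciita was almost absent from these libraries. It had 11 UMIs under ATV:RSV and 17, 12, 14 and 8 UMIs at ATV:4D9 days 1, 7, 14 and 28. These are 0.0880 CPM (exact 95% Poisson interval 0.0439 to 0.157), 0.0888 (0.0518 to 0.142), 0.101 (0.0521 to 0.176), 0.108 (0.0588 to 0.181) and 0.0564 CPM (0.0243 to 0.111). The intervals cover counting error only, and all 5 overlapped. Ciita failed the filter on low counts and was not tested in the 14260 genes. With no filter its log2 difference at day 1 was 0.23 (limma-voom adjusted p 0.77). The ratio of its summed CPM at day 1 to that under ATV:RSV was 1.01 (exact conditional 95% interval 0.446 to 2.39, counting error only), and a difference inside this interval was not detectable at this depth.

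Counted together, 5 of the 6 members tested were called higher at day 1 and none lower, where 69.2% of all genes tested were called (34.7% higher and 34.6% lower). With so many genes called, the count of members is no result about them. The median log2 fold change of the 6 members that passed the filter was 0.96, against -0.046 over all genes. With library size alone the median of all genes moved to -0.29 and the split of calls to 25.9% higher and 48.8% lower.

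At the later days 0 of 6 members were called against ATV:RSV, by limma-voom, edgeR or DESeq2, and 0 had an unadjusted p under 0.05 in limma-voom. The share of all genes called was 3.98% at day 7 (2.99% higher and 0.996% lower, or 2.22% and 6.19% with library size alone), 0.4% at day 14 and 0% at day 28, where edgeR called 0 genes, DESeq2 called 14, and 571 had an unadjusted limma-voom p under 0.05. From day 1 to day 7 all 6 were called, where 66.9% of genes were (33.0% higher and 33.9% lower, or 41.4% and 27.8% with library size alone). H2-Aa fell by 1.21 on the log2 scale (adjusted p 0.00398), H2-Eb1 fell by 0.94 (adjusted p 0.0282), H2-Ab1 fell by 0.87 (adjusted p 5.98e-05) and H2-DMb1 fell by 0.53 (adjusted p 3.52e-07), in limma-voom. The H2-Eb1 call was lost without ATV:4D9 day 1 replicate 1 (adjusted p 0.0993) or day 7 replicate 2 (0.0658) or 3 (0.0976), with library size alone (0.0617), and without cells with 3 markers of another type (0.0832), in limma-voom. From day 7 to 14 and from day 14 to 28 limma-voom, edgeR and DESeq2 called 0 members, none with an unadjusted p under 0.05, where limma-voom called 0.912% of genes (0.0561% higher and 0.856% lower, or 0.105% and 0.498% with library size alone) and 0%. For the last contrast edgeR called 0 genes, DESeq2 70, and 338 had an unadjusted limma-voom p under 0.05.

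**Figure D1:**
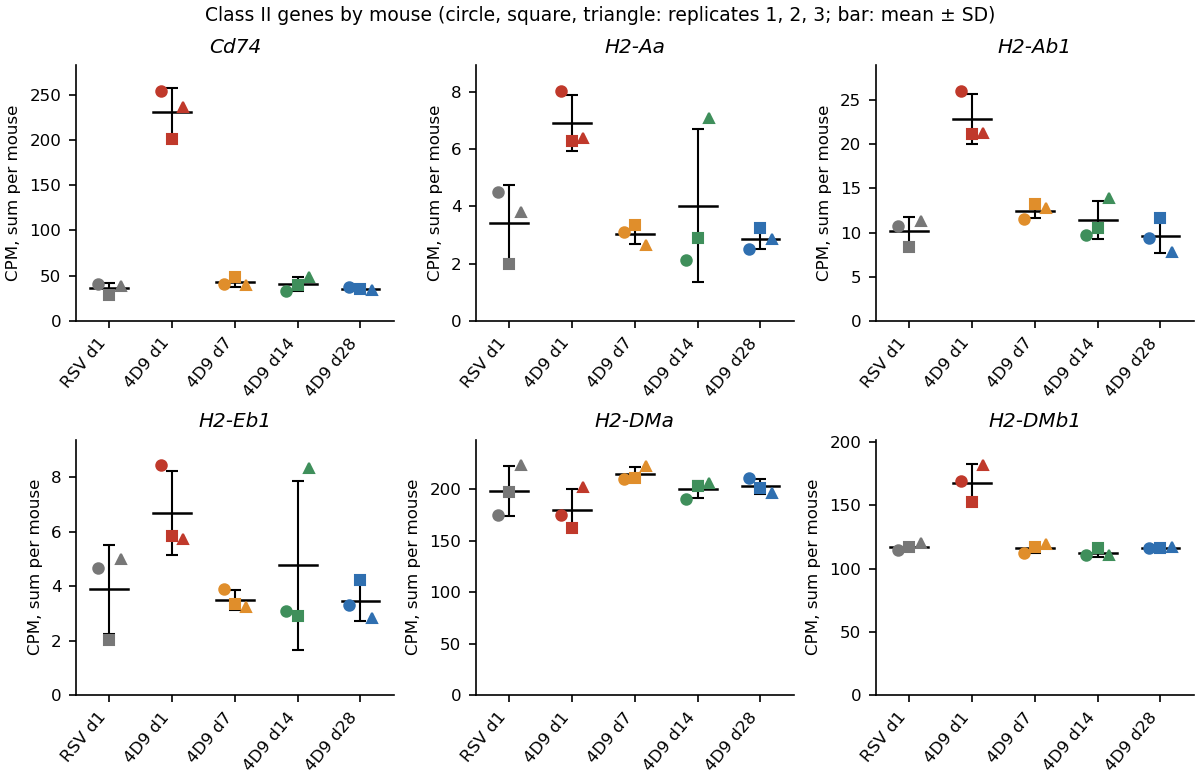
CPM of 6 class II genes summed over the cells of each mouse (y axis, from 0), by group (x axis), with each mouse as a point and the mean ± SD over 3 mice in black. The ATV:4D9 day 1 points of Cd74 lie between 201.3 and 254.6 CPM, apart from all others, whereas those of H2-DMa overlap the ATV:RSV points.

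Whether a rise in a summed library comes from a few cells or from many was asked by counting UMIs per thinned cell. A Cd74 UMI was found in 8.58%, 5.50% and 6.96% of the cells of the 3 ATV:RSV mice and in 42.4%, 36.4% and 40.5% of those of the day 1 mice. The share was 5.67 times as high at day 1 (39.7% ± 3.06 against 7.01% ± 1.54, SD, n = 3), with no overlap. At days 7, 14 and 28 it was 8.04% ± 0.524, 7.34% ± 0.390 and 7.29% ± 0.585 (SD, n = 3), which overlapped the controls. The exact two-sided permutation of 3 mice against 3 gave p = 0.1 for day 1, the smallest it can give (adjusted over 4 days, 0.4), while rearranging all 5 groups inside each batch, also an exact permutation, gave p = 0.0267 (14400 arrangements).

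At the thinned depth nearly all of the added Cd74 lay in cells with few UMIs. Cells with 1 UMI made up 5.48% of cells under ATV:RSV and 24.2% at day 1, and cells with 2 UMIs 0.871% and 9.69%. Cells with 3 to 5 UMIs went from 0.462% to 5.26%, and those with 6 to 9 from 0.0940% to 0.475%. Cells with 10 or more, the strongly positive ones, were 0.102% ± 0.052 and 0.147% ± 0.063 (SD, n = 3), and the groups overlapped (exact permutation of these 2 groups, p = 0.4, and exact within-batch permutation over the 5 groups, p = 0.359). This result depends on the depth: in cells that were not thinned the share was 0.276% ± 0.0737 under ATV:RSV and 2.18% ± 0.937 at day 1 (SD, n = 3), with no overlap. A limit of 10 UMIs is a higher level of Cd74 in a thinned cell than in a whole one, and the day 1 cells were also deeper; the part of each in this difference was not tested.

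The mean per cell differed by 0.564 UMIs between day 1 and ATV:RSV. Of this difference 64.4% lay in cells with 1 or 2 UMIs, 33.9% in cells with 3 to 9 and 1.79% in cells with 10 or more. When the highest 1% of cells of each mouse were left out, the mean was 0.605 ± 0.0738 UMIs at day 1 and 0.0661 ± 0.0168 under ATV:RSV (SD, n = 3), with no overlap. The exact permutation of these 2 groups gave p = 0.1, the smallest it can give. The exact within-batch permutation gave p = 0.0163, which is a test over all 5 groups and not of day 1 alone. Without thinning, 61.8% ± 3.53 of day 1 cells and 11.4% ± 2.83 of control cells had a Cd74 UMI (SD, n = 3).

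**Figure D2:**
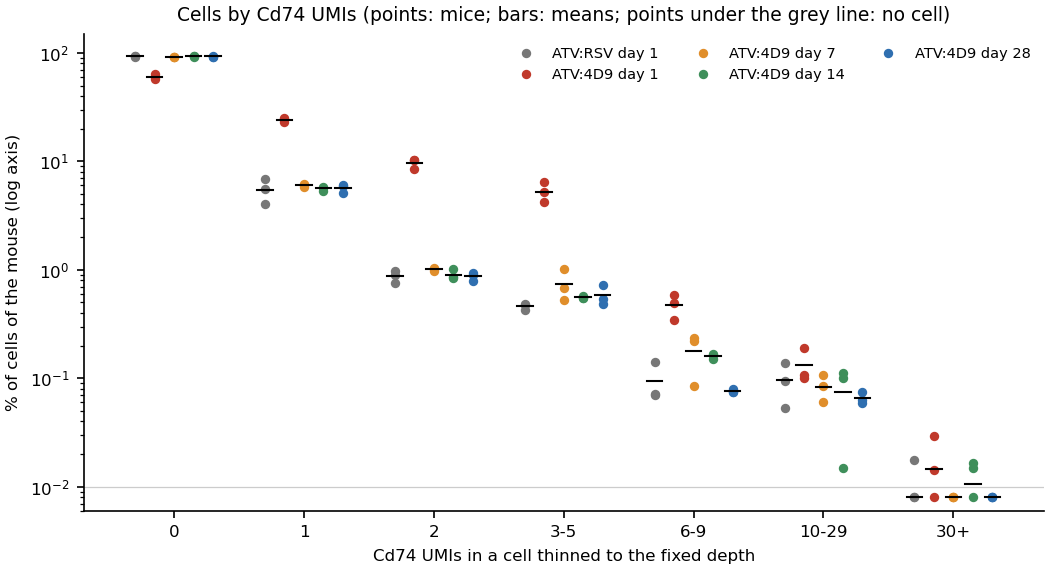
Percent of the cells of each mouse (y axis, log scale; values of 0 are drawn under the grey line) by the number of Cd74 UMIs in the thinned cell (x axis), with each mouse as a point and the mean as a bar. The ATV:4D9 day 1 points are apart from the others from 1 to 9 UMIs, where 24.2% of cells had 1 UMI, and mix with them from 10 UMIs on.

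How far the UMIs are concentrated in few cells tends to fall as the mean per cell rises, so the next values are a description and no further sign of a shift across cells. The highest 1% of cells held 34.3% to 46.7% of all Cd74 UMIs in the ATV:RSV mice and 9.84% to 12.9% at day 1. At the later days it was 35.8% to 48.0%. The cells that together held one in every pair of Cd74 UMIs were 1.21% to 2.29% of cells under ATV:RSV and 9.82% to 11.4% at day 1. The spread was still wider than counting alone would give, because a Poisson count with the same mean would put a UMI in 45.0% to 52.7% of day 1 cells, where 36.4% to 42.4% had one.

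The chain genes were detected in few cells. An H2-Ab1 UMI was found in 2.51% to 3.20% of ATV:RSV cells and 4.72% to 6.58% of day 1 cells, with no overlap, and the highest 1% of cells held 37.6% to 52.0% and 29.8% to 33.8% of its UMIs. H2-Aa was found in 0.430% to 1.50% and 0.944% to 1.54% of cells, and H2-Eb1 in 0.501% to 1.12% and 0.830% to 1.40%. These 2 overlapped. Over the 15 mice the highest 1% of cells held from 70.6% to 100% of the H2-Aa UMIs and from 70.5% to 100% of the H2-Eb1 UMIs, a share that has to be 100% where no more than 1% of cells had a UMI.

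The H2-DM genes were spread over many cells in all groups. H2-DMb1 was found in 32.9% to 35.1% of ATV:RSV cells and 36.9% to 40.4% of day 1 cells, without overlap. H2-DMa was found in 45.3% to 53.0% and 38.1% to 44.1%, lower at day 1 without overlap. Its CPM overlapped on the TMM-scaled library size, whereas all thinned cells have the same total. Without that scaling its CPM was 184.4 to 236.5 under ATV:RSV and 146.2 to 178.0 at day 1, with no overlap. These values leave out the few cells set apart by border-associated macrophage markers. The overlap thus depended on scaling and does not separate the number of positive cells from the amount of RNA. For both H2-DM genes the highest 1% of cells held 5.38% to 7.92% of the UMIs over all mice.

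**Figure D3:**
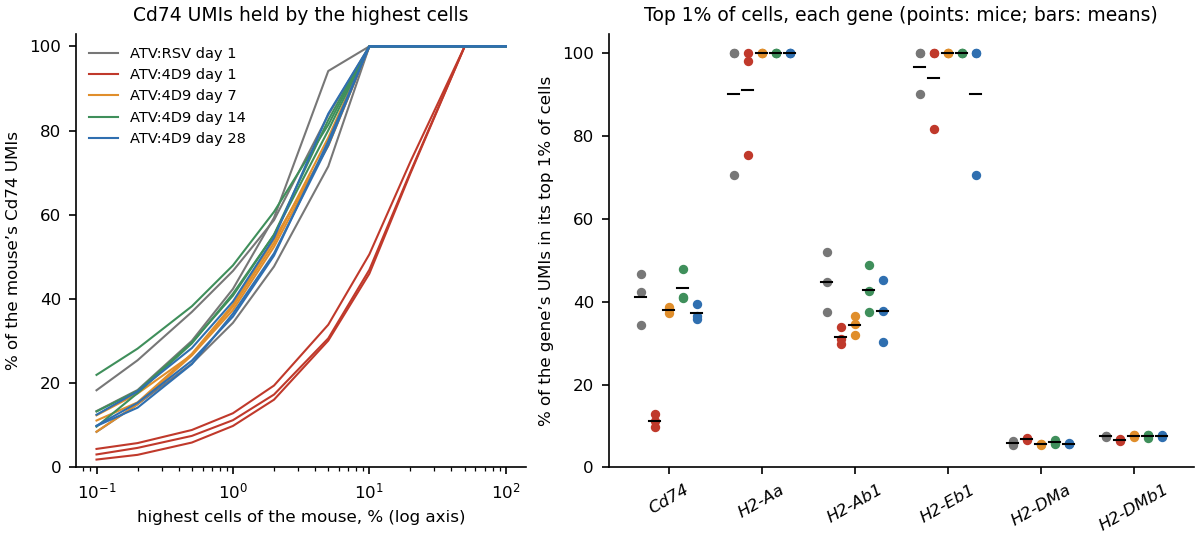
Left, percent of the Cd74 UMIs of a mouse (y axis) held by its highest cells (x axis, percent of cells, log scale), with a line per mouse; right, percent of the UMIs of each gene held by its highest 1% of cells, with each mouse as a point and the mean as a bar. The 3 ATV:4D9 day 1 lines run below the others, with 9.84% to 12.9% of Cd74 UMIs in the highest 1%.

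Free RNA can put UMIs of an abundant gene into droplets of cells that do not make it, and the data hold no cells clear of microglial transcripts to measure it. The nearest were thinned cells with at least 3 oligodendrocyte or astrocyte markers, all of which also had 3 microglial markers. Of 28 such cells under ATV:RSV (median 10055 UMIs before thinning), 2 had a Cd74 UMI (7.14%, exact 95% binomial interval 0.877% to 23.5%), and of 20 at day 1 (median 14252 UMIs), 12 had one (60.0%, 36.1% to 80.9%). The other cells stood at 7.08% and 39.6% with medians of 5673 and 8801 UMIs. The part of free RNA in the day 1 share was therefore not tested.

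A small set of cells was strongly positive for the chain genes. With a limit of 5 thinned UMIs of H2-Aa, H2-Ab1 and H2-Eb1 together, 102 of 91839 cells (0.111%) were chain-high, with 28 cells at 5 UMIs just inside and 43 at 4 just outside. There were 6, 3 and 12 such cells in the ATV:RSV mice and 20, 11 and 12 in the day 1 mice. As shares they were 0.119% ± 0.0810 and 0.221% ± 0.0680 (SD, n = 3), and the groups overlapped. Days 7, 14 and 28 had 14, 14 and 10 in all.

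In each of the 15 mice these cells, chosen by their chain UMIs, held a larger share of the chain UMIs than of the Cd74 UMIs. They had 9.35% to 36.2% of the chain UMIs under ATV:RSV and 22.9% to 24.97% at day 1, and 3.35% to 21.7% and 2.37% to 4.76% of the Cd74 UMIs. Outside them a cell had a mean of 0.0817 to 0.122 Cd74 UMIs under ATV:RSV and 0.570 to 0.720 at day 1, so the Cd74 difference stood without them. When the 1% of cells highest in the 3 chains were left out of the sums, Cd74 differed by 2.96 and H2-Ab1 stayed called, while H2-Aa (0.93, adjusted p 0.0518) and H2-Eb1 (0.51, adjusted p 0.229) were no longer called by limma-voom. The cells left out were chosen by the UMIs of these same chain genes. Their removal takes away counts of the genes tested, so the lost calls cannot show where the rise lay.

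P2ry12, a microglial receptor gene, was present in the chain-high cells at a lower summed level than in the other cells. Under ATV:RSV they had P2ry12 at 1688 CPM (2175 in the other cells) and no UMI of Mrc1, a macrophage marker of the brain borders. Pf4, another such marker, was at 70.3 CPM (4.91 in the other cells) from 5 UMIs. Cd163, Lyve1, F13a1, Cbr2 and Ms4a7 had no UMI. At day 1 the chain-high cells had P2ry12 at 433 CPM (816 in the other cells) and Mrc1 at 48.1 CPM (5.55 in the other cells), the latter from 7 UMIs. Pf4 was at 109.9 CPM there (9.89 in the other cells), Ms4a7 at 41.2 (1.76) and F13a1 at 13.7 (1.73), from 16, 6 and 2 UMIs. Cd163, Lyve1 and Cbr2 had no UMI. Of the 102 cells, 9 (8.82%) had 2 or more border-associated macrophage markers, where 365 of the other 91737 cells (0.398%) did. These were 0 of the 21 ATV:RSV cells and 5 of the 43 day 1 cells, and 2 of the 43 had 2 monocyte markers. Chain-high cells with 2 or more B cell markers were 3 of the 21, all in ATV:RSV replicate 3, and 2 of the 43. At days 7, 14 and 28 they were 1, 2 and 1. For B cell and monocyte markers no share in the other cells is given here, so these counts do not name the cells. At full depth 43 to 60 cells per ATV:RSV mouse and 33 to 88 per day 1 mouse had 3 or more B cell markers. The part of cells with markers of other types in the chain values was not tested. Of the genes with enough UMIs for the comparison, H2-D1, a class I chain, had the highest ratio of CPM in chain-high to other cells under ATV:RSV (3.64), followed by Apoe, a lipid carrier (2.80), Ly6e (1.96), B2m, the light chain of class I (1.91), Cd63 (1.74), Gapdh (1.59), Ssr4 (1.48), Fth1 (1.47), Ctsl (1.44) and Hspa5 (1.42). At day 1 the order was Apoe (9.84), the chemokine Ccl5 (6.28), Lyz2 (3.30), Ifi27l2a (3.12), Tmsb10 (2.72), the chemokine Cxcl11 (2.70), Ifitm3 (2.63), H2-D1 (2.17), H2-T23 (2.15) and Cited2 (1.94). Only 163 genes under ATV:RSV and 454 at day 1 had enough UMIs, so the orders of the 2 groups draw on different sets of genes. The ratios are descriptions of summed cells, with no test.

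Cd74 and the chains were found together most often in cells with much Cd74. Under ATV:RSV a chain UMI was found in 3.61% ± 1.13 of cells without Cd74, 8.22% ± 0.637 of those with 1 or 2 Cd74 UMIs, 32.8% ± 10.4 of those with 3 to 9 and 74.1% ± 12.8 of those with 10 or more (SD, n = 3). At day 1 the shares were 5.93% ± 1.14, 6.99% ± 1.41, 16.1% ± 0.318 and 82.8% ± 14.9 (SD, n = 3). Within a mouse, cells with 1 or 2 Cd74 UMIs exceeded those with none by 0.656 to 1.38 percentage points at day 1 and by 2.84 to 5.80 under ATV:RSV, in 3 of 3 mice of each group. All cells had been thinned to one depth, and no test was made across cells.

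Cells that also carried genes of other microglial states differed less in Cd74 than the groups did. At day 1 the share with a Cd74 UMI was 49.3% ± 2.02 in cells with a UMI of Axl, a TAM receptor, and 38.9% ± 3.17 in those without (SD, n = 3). For Isg15, an interferon response gene, it was 43.9% ± 3.54 and 37.9% ± 2.90, and for Apoe 41.2% ± 4.33 and 39.0% ± 2.36 (SD, n = 3). Cells with the proliferation gene Mki67 had a lower share, 31.9% ± 1.50 against 40.3% ± 3.12, and cells with the homeostatic gene Tmem119 39.1% ± 2.90 against 45.6% ± 5.34 (SD, n = 3). Within a mouse the difference had one direction in 3 of 3 day 1 mice for Axl and Isg15 (higher) and for Mki67 and Tmem119 (lower), and for Apoe it was higher in 2 of 3. Under ATV:RSV the Axl shares were 19.6% ± 11.6 (135 cells) and 6.91% ± 1.51 (SD, n = 3).

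The deposited clusters 0, 1 and 2 were made by the study from the same counts and are used here by number. Under ATV:RSV a mouse had 3477 to 4025 cells in cluster 0, 2693 to 2993 in cluster 1 and 76 to 165 in cluster 2. At day 1 these were 211 to 383, 180 to 555 and 5607 to 6597. Cells of a cluster therefore differ between these groups in number and may differ in kind, and cluster CPM is relative to the UMIs of the cells of that cluster.

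Cd74 was higher at day 1 in clusters 0 and 1 too. In cluster 0 it was 35.9 ± 8.24 CPM under ATV:RSV and 90.8 ± 6.44 CPM at day 1 (SD, n = 3), with no overlap, and its log2 level rose by 1.41 (SE 0.232, adjusted p 0.00146 in limma-voom). It was the 1 member called there, where 5.09% of 13329 genes were. In cluster 1 it went from 22.3 ± 4.70 to 106 ± 20.7 CPM (SD, n = 3) and rose by 2.30 (SE 0.167, limma-voom adjusted p 4.19e-08). H2-DMb1 rose there too, by 0.34 (SE 0.0912, adjusted p 0.0231), which made 2 members of a background of 9.18%. Cluster 1 was also the only one of the 3 clusters with a member called at day 7, where Cd74 was 30.1 ± 2.44 CPM (SD, n = 3; log2 0.55, SE 0.140, limma-voom adjusted p 0.0219, background 5.76%), while clusters 0 and 2 had 0 of 6 by limma-voom (backgrounds 4.28% and 0.693%). From day 1 to day 7 limma-voom called 1, 3 and 2 members in clusters 0, 1 and 2, where 6.41%, 9.88% and 42.7% of genes were called.

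Cluster 2 was the high cluster in every group and did not repeat the pattern. Cd74 was 190 to 398 CPM in its few ATV:RSV cells and 187 to 239 CPM in the many day 1 cells, with a log2 difference of -0.37 (SE 0.302, limma-voom adjusted p 0.365). H2-Aa fell by 1.89 (SE 0.576, adjusted p 0.0157) and H2-DMb1 rose by 0.47 (SE 0.122, adjusted p 0.00552) in limma-voom, 2 members of a background of 36.8%. The share of cluster 2 cells with a Cd74 UMI was 31.9% ± 5.94 under ATV:RSV and 41.2% ± 3.28 at day 1 (SD, n = 3). In clusters 0 and 1 it was 7.20% ± 1.82 and 5.52% ± 1.05 under ATV:RSV, and 20.5% ± 2.92 and 22.6% ± 4.24 at day 1 (SD, n = 3). In the same day 1 libraries the share thus differed between cluster 2 and clusters 0 and 1 at one depth. Of the chain-high cells, all 43 at day 1 were in cluster 2, and the 21 under ATV:RSV were 14, 1 and 6 in clusters 0, 1 and 2. Cluster 2 also held most of all day 1 cells and few of all ATV:RSV cells.

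**Figure D4:**
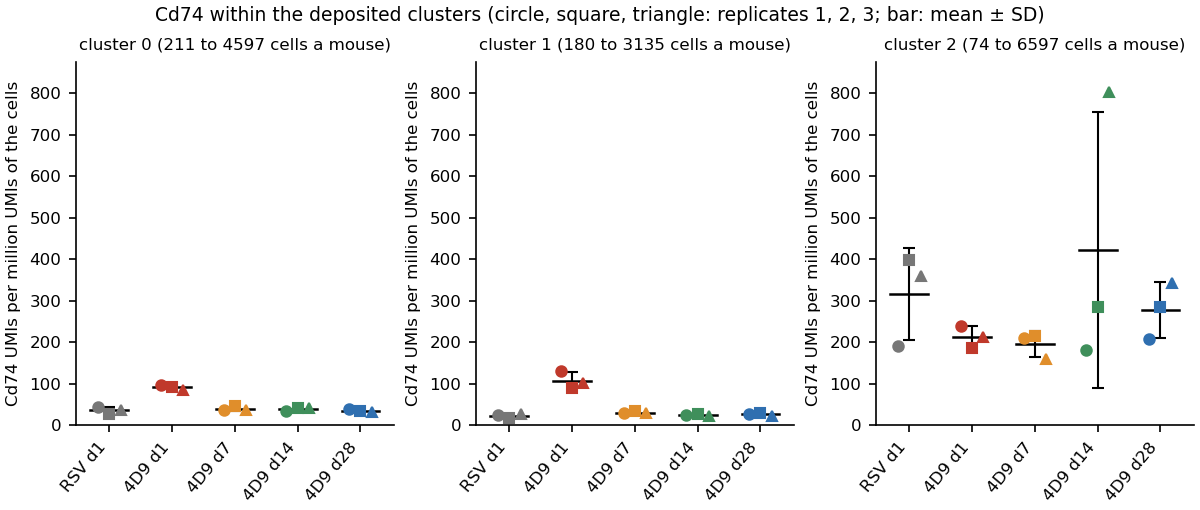
Cd74 CPM relative to the UMIs of the cluster's cells (y axis, from 0) in each of the 3 deposited clusters, by group (x axis), with each mouse as a point and the mean ± SD over 3 mice in black. ATV:4D9 day 1 is apart from ATV:RSV in clusters 0 and 1 but not in cluster 2, where ATV:4D9 day 14 replicate 3 is highest at 803.

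Border-associated macrophages express class II and were looked at apart. Cells with 3 or more of their markers numbered 60 to 75 per mouse at day 1 and 15 to 27 under ATV:RSV in cells of full depth, which was greater at day 1, and 17 to 21 and 3 to 8 after thinning. At day 1 they held 2.34% ± 0.400 of the Cd74 UMIs, 4.44% ± 1.17 of those of H2-Ab1, 12.4% ± 5.86 of those of H2-Aa and 10.6% ± 4.66 of those of H2-Eb1 (SD, n = 3). Under ATV:RSV they held 1.56% ± 0.527, 1.45% ± 0.825, 3.44% ± 3.00 and 5.92% ± 2.04 of the same 4 genes in that order (SD, n = 3). Outside the chain-high cells Mrc1 went from 7.70 CPM under ATV:RSV to 5.55 at day 1. Pf4 went from 4.91 to 9.89 and Ms4a7 from 0.768 to 1.76 there, and Cd163, Lyve1, F13a1 and Cbr2 were also higher at day 1. Whether all cells with 3 markers were border-associated macrophages was not tested. Without all cells that carried markers of another type, Cd74 differed by 2.68, as in the full sums, and H2-Eb1 by 0.61.

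The wider pathway list held 36 other genes of class II assembly, regulation and costimulation, of which 33 were tested. H2-Ea-ps, the alpha chain that is not made in these mice, had 0 UMIs in all 15 mice, which allows up to 0.00424 CPM. H2-Eb2 had 0 to 7 and Ifng 0 to 1 UMIs per mouse. At day 1, 10 of the 33 were higher, 16 lower and 7 not called in limma-voom, with a median log2 fold change of -0.13. Of all genes tested 34.7% were called higher and 34.6% lower. The share of the list called higher was near that of all genes, and the share called lower was above it, a difference that was not tested. With library size alone the list had 6 higher, 22 lower and 5 not called with a median of -0.37, where 25.9% and 48.8% of all genes were higher and lower.

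The 8 called list genes that moved furthest at day 1, of which 7 are given here, were mostly outside class II assembly itself. Cd40, a costimulatory receptor, went from 0.462 to 18.7 CPM and rose by 5.37 on the log2 scale (SE 0.356). Mif, a ligand of CD74, went from 121 to 896 CPM and rose by 2.89 (SE 0.0601). Cd44, the signalling partner of CD74, rose by 1.62 and Ifi30, the lysosomal thiol reductase, rose by 1.24 (175 to 418 CPM). Cd80, a costimulatory ligand, fell by 1.00, H2-DMb2 fell by 0.95 and Prdm1, a repressor of Ciita, fell by 0.94. The largest limma-voom adjusted p of these 8 was 0.00143.

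The RFX subunits did not rise with Cd74, and the interferon regulatory factors differed little on the TMM-scaled sums. Rfx5 and Rfxank, subunits of the RFX complex on the X box, fell by 0.40 and 0.76 (limma-voom adjusted p 0.000654 and 6.67e-09), and Rfxap, the third subunit, differed by -0.16 (adjusted p 0.0662; with library size alone -0.40, adjusted p 0.000212). Irf1 rose by 0.20 (adjusted p 0.0292), a call lost with library size alone (-0.046, adjusted p 0.607). Irf8 fell by 0.13 (adjusted p 0.0251), and by more with library size alone (-0.37, adjusted p 2.87e-06).

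H2-Oa, which with H2-Ob restrains H2-DM, changed in opposite directions at different days. It was 43.8, 41.9 and 43.7 CPM under ATV:RSV, 28.7, 25.7 and 28.0 CPM at day 1, and 73.4, 68.6 and 69.1 CPM at day 7. The 3 groups did not overlap. It fell by 0.65 at day 1 (SE 0.0628, limma-voom adjusted p 1.45e-07) and rose by 0.71 at day 7 (SE 0.0603, limma-voom adjusted p 3.23e-06). At day 14 it was 61.6, 56.3 and 52.8 CPM and still called (0.40, limma-voom adjusted p 0.00832), and at day 28 it was 52.3, 55.8 and 52.0 CPM, above all controls but not called (0.31, limma-voom adjusted p 0.339). H2-Ob fell by 0.86 at day 1 (limma-voom adjusted p 1.46e-08). It was not called at day 7 (0.058, limma-voom adjusted p 0.719) or day 14 (-0.044), so the later rise was seen in H2-Oa alone.

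At day 7 the list had 6 genes higher, 0 lower and 27 not called in limma-voom, while 2.99% of all genes were called higher and 0.996% lower. Besides H2-Oa these included Cd83 (0.75), Mif (0.43), Cd86 (0.31) and Icosl (0.25), of which Cd83 stabilizes surface class II and Cd86 and Icosl are costimulatory ligands. With library size alone 4 were higher and 5 lower, and Icosl was among the genes that lost their calls. H2-Oa was the 1 list gene called at day 14 (background 0.4%), and limma-voom called 0 at day 28, in a contrast without any called gene.

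**Figure D5:**
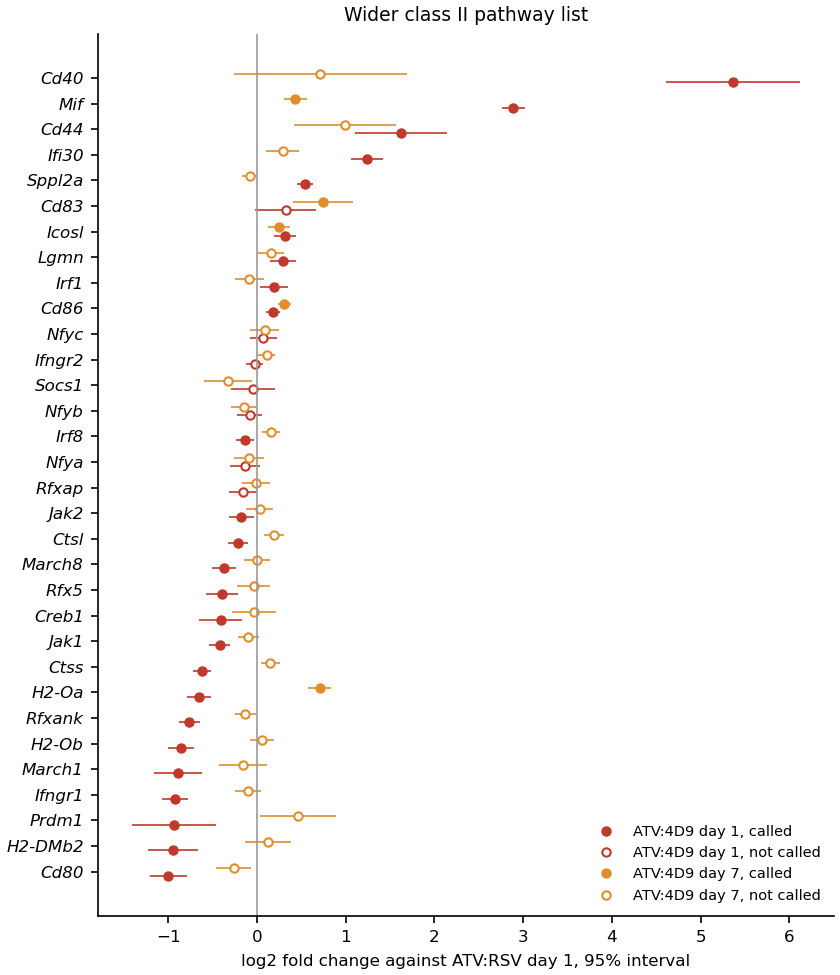
Log2 fold change against ATV:RSV day 1 with its 95% interval (x axis) for 32 of the 33 tested genes of the wider class II pathway list (y axis), at ATV:4D9 day 1 and day 7, with filled points for genes called by limma-voom. Cd40 and Mif lead at day 1 with 5.37 and 2.89, and H2-Oa lies on opposite sides of 0 at the 2 days.

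Over the 15 mice the log2 CPM pattern of Cd74 was most like that of Tfrc, the transferrin receptor (Pearson r 0.990), Denr (0.989), Selenow (0.989), Noc2l (0.989) and Phf11d (0.988). As 2650 genes had an r above 0.9, set by day 1 against the rest, the order among them says little. The members ranked H2-DMb1 (0.955), H2-Ab1 (0.937), H2-Aa (0.806), H2-Eb1 (0.682) and H2-DMa (-0.529). Over the 12 mice outside day 1 the most alike were Myo5a (0.888), Usp25 (0.844), Kcnj2 (0.812), Fosl2 (0.807) and S100a6 (0.805), and the members stood at 0.804 for H2-Ab1, 0.753 for H2-Aa, 0.663 for H2-Eb1, 0.291 for H2-DMa and -0.169 for H2-DMb1. The mice share batches and low counts, so these are descriptions without a test.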

How the data were processed

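The authors aligned the reads to mm10 with Cell Ranger (version 4.0.0 in the submitters' processing notes) and filtered and clustered cells in Seurat. The filters on cells and the treatment of doublets are not given in the sources used here, and no doublet caller was run. UMI counts were deposited as raw whole numbers, one per gene and cell. The authors also deposited, for each cell, its mouse, its cluster number and the percent of its UMIs from mitochondrial genes, which was at most 10. A further control animal in the labels was not analysed here.

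The members, lists and limits were chosen with earlier results of these data known. Counts were summed per mouse. limma-voom (R 4.3.3, limma 3.58.1) was fitted to the TMM-scaled sums of all 15 mice after filterByExpr (minimum count 10, total 15), with calls at a Benjamini-Hochberg adjusted p under 0.05. The quasi-likelihood test of edgeR 4.0.16 and DESeq2 1.42.0 were alternatives, as were library size alone, no filter, a batch block, leaving out each mouse, sets of cells and single clusters. The scripts were tested on simulated data. Cells were thinned to 3385 UMIs, the 10th percentile, which left out 10204 cells (3.93% to 17.8% of a mouse). Poisson and binomial intervals cover counting error only.

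The labels put 1 mouse of each condition in each batch, which makes the batch a pairing. The mean Pearson r between the deviations of 2 mice from their groups was 0.0539 within a batch (-0.225 to 0.259) and -0.0267 across batches. No 2 libraries of a group were copies, with a chi-square per degree of freedom of at least 10.6. The text names all members, 8 list genes with the largest called changes, list genes called later, regulators fixed by name, and the most alike or most enriched genes by rank. Some genes of these lists are counted in the totals but are not reported here by name.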

Additional observations from a re-analysis of the deposited data

Results flagged for a closer look

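H2-Oa, a chain of the H2-DM inhibitor, had effects of opposite sign at different days against the same ATV:RSV mice. Its log2 fold change was -0.65 at day 1, 0.71 at day 7 and 0.40 at day 14, each called by limma-voom, and every mouse of each of these groups lay on the same side of all controls. The difference itself was tested between day 7 and day 1, where it was 1.36 (limma-voom adjusted p 2.71e-11), and H2-Oa fell by 0.31 from day 7 to day 14 (adjusted p 0.0190). With library size alone the 3 values were -0.89, 0.61 and 0.35. H2-Ob, the other chain of the inhibitor, was not called at day 7 (0.058) or day 14 (-0.044). The cause of the opposite signs of H2-Oa was not tested.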

How the results depend on the processing

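The number of members called at day 1 was 4 to 6 when each mouse was left out and 5 with the batch as replicate block. From day 1 to day 7 it was 5 to 6 when each mouse was left out and 6 with the block, and at all other contrasts it was 0 in both. The replicate block changed no call. Without the 1% of cells highest in the 3 chains, a set chosen by the UMIs of members, 3 members were called at day 1. Within clusters 0, 1 and 2 these were 1, 2 and 2, from day 1 to day 7 1, 3 and 2, and at day 7 against ATV:RSV 1 in cluster 1. Called log2 fold changes turned sign only within single clusters, and the cause was not tested. Of these, H2-Aa at day 1 (limma-voom adjusted p 0.0157) and H2-Ab1 from day 1 to day 7 (0.0440) in cluster 2 passed the threshold. At day 1 this held for H2-Eb1 in cluster 0 (-0.077), H2-Aa in cluster 1 (-0.55), and H2-Ab1 (-1.001), H2-Aa (-1.89), H2-Eb1 (-1.24) and Cd74 (-0.37) in cluster 2. From day 1 to day 7 it held for H2-Eb1 in cluster 0 (0.0061), H2-Ab1 (0.11) and H2-Aa (0.45) in cluster 1, and H2-Ab1 (1.08), H2-Aa (1.49) and H2-Eb1 (1.32) in cluster 2. Of the 1176 fold changes under alternatives, 1053 counted as the same. Those called in both settings kept their direction. Those called in neither stayed within the SE of the main fit, whatever their sign. A further 77, called in neither, moved by that SE or more, 30 lost a call and 4 gained one.

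The share of cells with a Cd74 UMI differed at day 1 by 32.7 percentage points, by 31.4 to 34.4 without single mice, by 50.4 without thinning and by 36.9 when thinned to 4383 UMIs. The share with 10 or more differed by 1.90 points at day 1 and 0.0292 at day 28 without thinning. The mean without the highest 1% of cells differed by 1.59 UMIs without thinning and 0.686 at the 25th percentile depth. Depth limits Ciita, H2-Aa and H2-Eb1 most. There was no control at later days, and 3 mice against 3 cannot reach an exact p under 0.1.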
